A study of Caenorhabditis elegans with 24 samples.

Results

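The 36 genes described here shared a transient peak of mRNA at 120 min after the 4-cell stage of the Caenorhabditis elegans embryo, out of 20687 worm genes in the count table. They were chosen by their measured values: CPM, a gene's counts scaled to the worm total of its library, were averaged over the 3 libraries of a stage, and a gene was taken when its highest stage mean was at 120 min, that mean was at least 100 CPM, and the mean plus 1 was at least 4 times the mean plus 1 at both 60 and 270 min. The highest mean lay at 120 min in 1804 genes, and 606 of these reached 100 CPM. Of the 606, 140 met only the fold over 270 min, 40 met only the fold over 60 min, 390 met neither and 36 met both. All 36 are annotated as protein-coding, and all 36 passed the filter on low counts. The differences of 120 min from 60 and 270 min are therefore given as values without a test.

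An early worm embryo starts with mRNA laid down by the mother and then switches on its own genes. Many of the first genes to be switched on encode transcription factors that assign a fate to one founder lineage, such as GATA factors in the epidermis and T-box and forkhead factors in several lineages, and their mRNA is often present for only a few cell divisions. F-box proteins, a family greatly expanded in nematodes, pair with Skp1-related proteins to hand chosen proteins to a ubiquitin ligase for destruction.

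The samples were pools of 50 whole embryos of the wild-type strain N2, with no treatment named, at 60, 120 and 180 min after the 4-cell stage, then at 225, 270 and 330 min and last at 410 and 500 min. Each stage had 3 libraries. The labels give 1 running number to both replicate 1 and replicate 2 at each stage and do not say that replicates were separate cultures, so p-values measure only the spread between these samples, which may be technical. CEL-Seq reads the end of a transcript, and CPM were not divided by gene length. In whole embryos, fewer cells of a type and less RNA per cell cannot be told apart.

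Worm totals ran from 172620 counts in 120 min replicate 1 to 977908, so that a count of 0 in a library allows up to 3.07 to 17.4 CPM. Every pair of replicates differed by more than sampling noise (chi-square per degree of freedom 1.92 to 5.93). Summed early embryo markers (10 genes) ran from 1359 to 1477 CPM per library at 60 min, from 1257 to 1557 at 120 min and from 609 to 857 at 180 min; 2 of them, elt-1 and pes-1, are among the 36. From 60 to 120 min elt-1 rose from 32.9 ± 15.1 to 702 ± 113 CPM and pes-1 from 24.5 ± 7.82 to 194 ± 43.5 CPM, with the SD over 3 libraries. Most of the others fell. pes-10 went from 668 ± 123 to 133 ± 64.5 CPM, tbx-38 from 279 ± 58.7 to 18.8 ± 16.8 CPM and tbx-37 from 78.3 ± 17.9 to 3.96 ± 1.64 CPM. end-3 (53.9 ± 21.7 CPM at 60 min) and med-1 were at 0 at 120 min. By contrast, end-1 went from 52.6 ± 6.35 to 83.1 ± 21.7 CPM and hlh-1 from 17.4 ± 4.62 to 27.3 ± 10.5 CPM. pal-1 was level, at 221 ± 16 and 224 ± 25.5 CPM. Summed maternal and oocyte markers (14 genes, none at 0) ran from 4584 to 5027 CPM per library at 60 min, from 1217 to 1606 at 120 min and from 109 to 325 at 270 min. Summed yolk protein markers (6 genes, none at 0) ran from 84.4 to 1305 CPM at 60 min, from 82.0 to 910 at 120 min and from 6.24 to 759 at 270 min, and those of body wall muscle (10 genes, none at 0) from 31.2 to 446, from 18.8 to 197 and from 428 to 1452 CPM. Of 35 sperm markers, 23 were at 0 at 120 min and the sum there was 10.6 to 29 CPM. The part of these in the peak at 120 min was not tested. No yolk, oocyte, sperm or muscle marker was among the 36 genes.

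The 36 genes together held 1597 ± 338 CPM at 60 min, 10205 ± 638 CPM at 120 min and 5030 ± 529 CPM at 180 min, with the SD over 3 libraries each. The sum was down to 2340 ± 340 CPM by 225 min and 942 ± 177 CPM by 270 min, and it ended at 609.6 ± 134, 307 ± 42.1 and 256 ± 42.1 CPM in the last 3 stages. The 3 libraries at 120 min summed to 9506, 10352 and 10756 CPM. Every one of the 36 had all 3 of its 120 min libraries above all 3 at 60 min and above all 3 at 270 min, where 25.2% and 21.7% of the 8279 tested genes did. The rule used both contrasts, so those counts are only a description. Within 120 min, the SD was 17.9% of the mean for the median gene, from 3.77% in fmo-5 to 56.0% in F55C9.3. F55C9.3 had 365, 210.0 and 111 CPM at 120 min in replicates 1 to 3. Its lowest value there was still above all 3 libraries at 60 min, at 23.1, 20.1 and 31.2 CPM. Replicate 1, the library with the fewest counts, was the lowest of the 3 at 120 min for 23 genes and the highest for 7, and replicate 3 was the highest for 20.

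**Figure D1:**
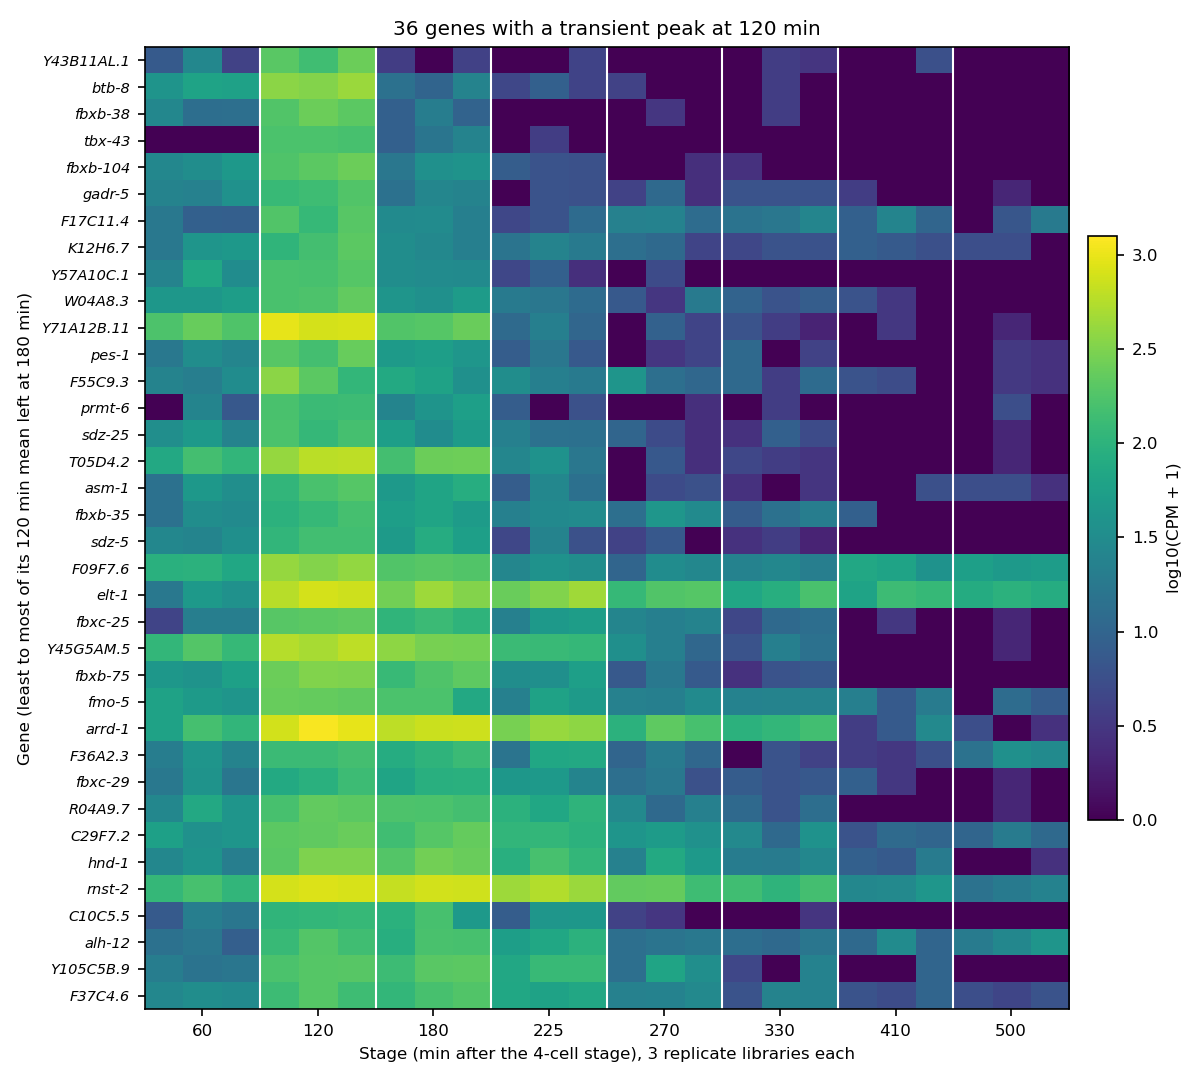
Expression of the 36 genes (down the page, from the least to the most of the 120 min mean left at 180 min) in each of the 24 libraries (across, 3 per stage, white lines between stages), coloured by log10(CPM + 1). Every gene is bright at 120 min, and those lowest on the page are as bright at 180 min.

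From the lists of transcription factors, 4 genes were among the 36. The highest CPM of these belonged to elt-1, the GATA factor that specifies the epidermis. elt-1 had 16.5, 46.2 and 35.9 CPM at 60 min, 579, 803 and 723 CPM at 120 min and 271, 441 and 332 CPM at 180 min. At 225 min it had 249, 321 and 449 CPM, followed by 118.6, 180.0 and 192 CPM at 270 min. The 120 min libraries were above every other library, and those of 180 and 225 min overlapped. elt-1 kept 105.4 ± 50.6 CPM at 330 min, 104.4 ± 37.2 CPM at 410 min and 85.9 ± 9.60 at 500 min (SD, n = 3), the highest mean of the 36 genes at each of these last 2 stages.

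hnd-1, a basic helix-loop-helix factor of the HAND group that acts in mesoderm, had 26.4, 38.2 and 20.3 CPM at 60 min, 203, 319 and 318 CPM at 120 min and 188, 276 and 247 CPM at 180 min, followed by 90.1, 158 and 112 CPM at 225 min. Its 120 and 180 min libraries overlapped, so that its peak was not set apart from 180 min. The forkhead factor pes-1, named for its patterned expression in the embryo, had 16.5, 32.2 and 24.9 CPM at 60 min, 197, 149 and 236 CPM at 120 min and 48.3, 54 and 41.2 CPM at 180 min, followed by 7.21, 15.8 and 6.41 CPM at 225 min. No library of pes-1 outside 120 min reached the lowest one at 120 min.

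tbx-43, a T-box factor, had the highest ratio of 120 min to its flanking stages among the 36. It had 0 counts in all 3 libraries at 60 min, 168, 167 and 155 CPM at 120 min, 8.05, 15 and 23.5 CPM at 180 min and 1 count in all at 225 min. It was at 0 counts in every library from 270 min on. Against a floor of 3 counts over the 3 libraries, tbx-43 was at least 77.5-fold higher at 120 than at 60 min and at least 75.95-fold higher at 120 than at 270 min. Such floors, like the intervals below, cover counting error only.

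**Figure D2:**
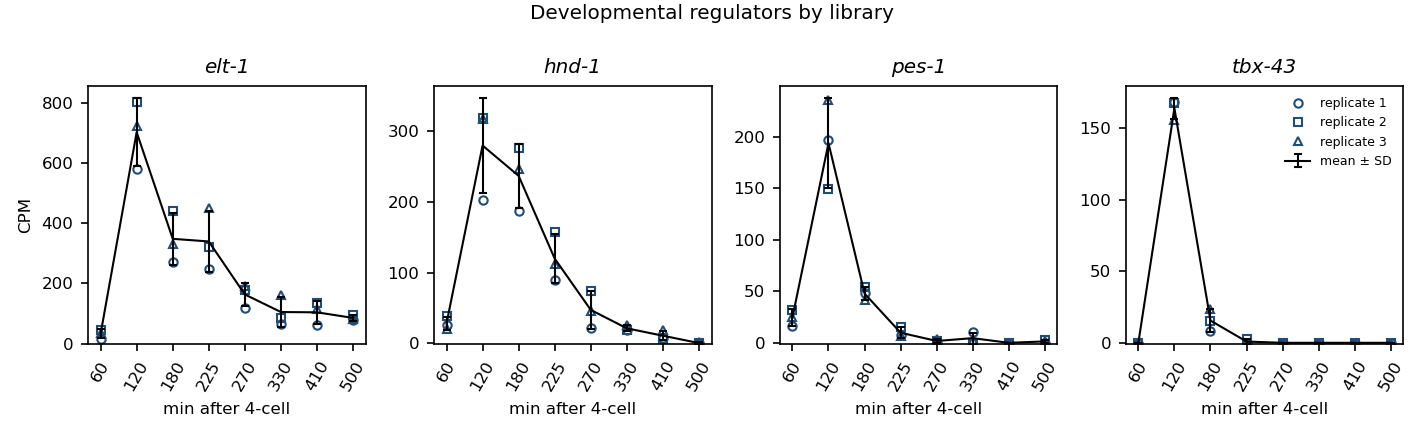
CPM of elt-1, hnd-1, pes-1 and tbx-43 (1 panel each, with its own axis from 0 or just below it) at the 8 stages, with a symbol per replicate library and a line through the mean ± SD of 3 libraries. All 4 are highest at 120 min; elt-1 stays near 100 CPM to the end, while tbx-43 is at 0 at 60 min and from 270 min on.

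Next to tbx-43, the highest ratios of the mean plus 1 at 120 min to the higher of those at 60 and 270 min were 15.4 for Y43B11AL.1, 12.7 for prmt-6, 11.98 for fbxb-38 and 9.75 for alh-12. Y43B11AL.1 had 6.61, 26.1 and 3.12 CPM at 60 min, 203, 141 and 251 at 120 min and 2.68, 0 and 2.94 at 180 min. It was thus close to the floor within 1 stage of its peak. prmt-6, which encodes a protein arginine methyltransferase, had 0, 24.1 and 6.24 CPM at 60 min, 162, 128 and 132 at 120 min and 24.1, 39 and 55.9 at 180 min.

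The highest CPM at 120 min belonged to arrd-1, which encodes an arrestin-domain protein, with 770.5, 1178 and 969 CPM there and 59.5, 151 and 108 CPM at 60 min. Y71A12B.11 had 956, 792 and 807 CPM at 120 min and 172, 237 and 173 at 60 min. The lysosomal T2 ribonuclease gene rnst-2 had 799, 864 and 824 CPM at 120 min and 116, 157 and 109 at 60 min. In all 3 the groups were far apart, and 60 min already held 1 library or more above 100 CPM. After these and elt-1 came Y45G5AM.5 with a mean of 559 ± 57.8 CPM at 120 min, T05D4.2 with 542 ± 113, F09F7.6 with 380.0 ± 42, btb-8, a BTB-domain gene, with 377 ± 51, fbxb-75 with 296 ± 40.9 and hnd-1 with 279.9 ± 66.8 (SD, n = 3). The other enzymes named among the 36 were fmo-5, a flavin-containing monooxygenase, at 229.7 ± 8.65 CPM, asm-1, an acid sphingomyelinase, at 154 ± 40.4 CPM, and alh-12, an aldehyde dehydrogenase, at 149.9 ± 33 CPM. The other strand of rnst-2 holds str-67 and K10C9.7, both at 0 counts in every library. The end of asm-1 overlaps cyn-10 by 120 bases and that of F17C11.4 overlaps clec-221 by 20 bases, also on the other strand. The ends of F36A2.3 and F09F7.6 overlap genes there too, which are named with the 500 min results. Non-coding genes overlap another 3 of the 36, namely tbx-43 (with ncRNAs on both strands), fbxb-38 (anr-48, an antisense RNA) and Y105C5B.9 (a tRNA and an ncRNA). The strand used in counting is not given in the sources used here, so that reads of these 8 genes and of what they overlap may not be told apart.

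After 120 min the genes left their peak at different times. At 180 min the stage mean stood at a median of 45.7% of that at 120 min, with a range from 0.945% in Y43B11AL.1 to 99.02% in F37C4.6. It was at or under 25% in 13 genes, between 25 and 50% in 8 and at or over 50% in 15. The 13 with least left were Y43B11AL.1, btb-8, fbxb-38, tbx-43, fbxb-104, gadr-5, F17C11.4, K12H6.7, Y57A10C.1, W04A8.3, Y71A12B.11, pes-1 and F55C9.3. btb-8 had 365, 332 and 432 CPM at 120 min, 13.4, 9 and 23.5 CPM at 180 min and 3.61, 7.88 and 3.21 CPM at 225 min. fbxb-38 had 179.6, 255 and 208 CPM at 120 min, 8.05, 19.5 and 8.82 at 180 min and 0 counts in all 3 libraries at 225 min. In both genes every 120 min library was far above every 180 min library.

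The 15 with most left were F37C4.6, Y105C5B.9, alh-12, C10C5.5, rnst-2, hnd-1, C29F7.2, R04A9.7, fbxc-29, F36A2.3, arrd-1, fmo-5, fbxb-75, Y45G5AM.5 and fbxc-25. F37C4.6 had 133, 189 and 135 CPM at 120 min, 113, 158 and 182 at 180 min and 68.5, 60.4 and 72.1 at 225 min. For F37C4.6 the libraries of 120 and 180 min overlapped, so that which of these stages was its peak lay within the spread of replicates. Such overlap was found in 9 of the 36, hnd-1, C29F7.2, R04A9.7, Y105C5B.9, F37C4.6, alh-12, F36A2.3, C10C5.5 and fbxc-29. In the other 27 all 120 min libraries were above all 180 min libraries, as in 12.2% of tested genes; the choice of the genes by their 120 min mean bears on this count. The remaining 8, at between 25 and 50%, were prmt-6, sdz-25, T05D4.2, asm-1, fbxb-35, sdz-5, F09F7.6 and elt-1.

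**Figure D3:**
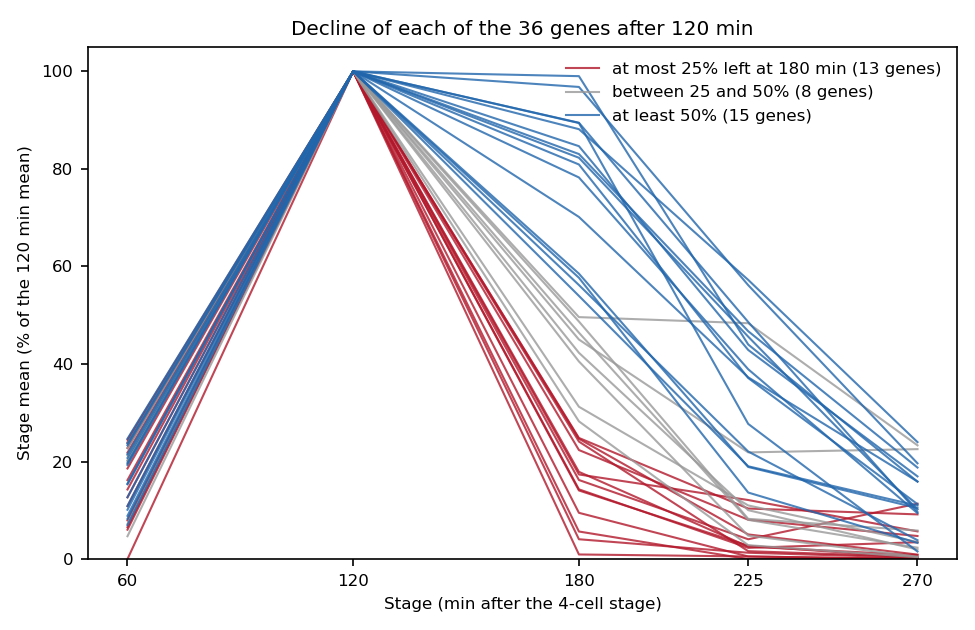
Stage mean of each of the 36 genes as a percentage of its own 120 min mean (1 line per gene) from 60 to 270 min, coloured by the share left at 180 min. The 60 and 270 min points lie under 25% by the rule that chose the genes, whereas at 180 min the lines fan out from 0.945 to 99.02%.

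The step from 180 to 225 min was tested across all genes. It uses neither stage of the fold conditions, yet it lies inside the fall that those conditions fix between 120 and 270 min, so the share of genes that fell is not independent support for the pattern. With edgeR's quasi-likelihood test and Benjamini-Hochberg adjustment over 8279 genes, 25 of the 36 fell at 225 min (69.4%) and 0 rose, where 2.57% of tested genes fell and 3.07% rose. Of the 11 that did not pass, 10 had a log2 change below 0. The median log2 change was −1.5 for the 36 and 0 for all tested genes. With 1 gene at its floor and 1 at or under the floor at both stages left out, the median of the 36 was −1.51. In 32 genes all 180 min libraries were above all 225 min libraries, as in 10.3% of tested genes. The count of 25 fell to 10 without 225 min replicate 3, to 12 without replicate 2 of all stages and to 6 without replicate 3 of all stages, and to 6 when libraries were scaled by spike-ins. The median log2 change of the 36 was −1.41 without replicate 3 and −1.53 with spike-ins, while genes that fell numbered 213 over all tested genes, 47 without replicate 3 and 44 with spike-ins.

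Y71A12B.11 fell to 10.8, 21 and 9.62 CPM at 225 min, against 182, 189 and 244 CPM at 180 min. This was a log2 change of −3.90 ± 0.35 (SE; edgeR adjusted p = 8.5e-10), the largest fall among genes with at least 50 CPM at either stage. T05D4.2 had 25.2, 36.8 and 16 CPM at 225 min, against 148, 252 and 259 CPM at 180 min, and its log2 change was −3.13 ± 0.34 (edgeR adjusted p = 9.3e-08). F09F7.6 had 25.2, 36.8 and 32.1 CPM at 225 min, against 182, 194 and 179 CPM at 180 min. Its log2 change was −2.53 ± 0.27 (edgeR adjusted p = 6.3e-08). In these 3 genes the groups were far apart, and the fall passed the test under all 19 alternatives tried.

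sdz-5, one of the genes named as SKN-1-dependent zygotic transcripts after the maternal factor SKN-1, had 3.61, 23.7 and 4.81 CPM at 225 min, against 48.3, 81.0 and 55.9 CPM at 180 min. It changed by −2.57 ± 0.47 on the log2 scale (edgeR adjusted p = 3.9e-04), with replicate 2 the highest at both stages. Its namesake sdz-25 (entry M116.4) changed by −1.51 ± 0.44 (edgeR adjusted p = 0.0317) and passed in 9 of 19 alternatives. pes-1 changed by −2.31 ± 0.47 (edgeR adjusted p = 0.00125) and fbxb-75 by −2.01 ± 0.30 (edgeR adjusted p = 2.2e-05). tbx-43 held 1 count over the 3 libraries at 225 min, against 21 counts at 180 min, which was 19.5-fold lower per count sequenced, with an exact 95% binomial interval from 3.14 to 807. fbxb-38 held 0 counts at 225 min, against 19 at 180 min, and was at least 5.89-fold lower.

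The smallest falls that passed were those of C29F7.2, arrd-1 and hnd-1, all with log2 changes between −0.96 and −0.82. Of 19 alternatives, C29F7.2 passed in 6, arrd-1 in 9 and hnd-1 in 11. arrd-1 had 288, 420.5 and 378 CPM at 225 min, against 609, 708 and 729 CPM at 180 min (log2 change −0.89 ± 0.27, edgeR adjusted p = 0.0408). The hnd-1 libraries were also apart, between 90.1 and 158 CPM at 225 min against a range of 188 to 276 CPM at 180 min (log2 change −0.96 ± 0.27, edgeR adjusted p = 0.0259). elt-1 did not pass, with a log2 change of −0.02 ± 0.25 (edgeR adjusted p = 1.0) whose sign changed with the processing. Y105C5B.9 at −0.75 ± 0.38 (edgeR adjusted p = 0.343) and fbxb-35 at −1 ± 0.39 (edgeR adjusted p = 0.149) did not pass either. rnst-2 stood at 444, 549 and 431 CPM at 225 min, against 665, 780.2 and 747 CPM at 180 min, groups that did not overlap, and missed the threshold at −0.61 ± 0.20 (edgeR adjusted p = 0.0626). rnst-2 passed in 3 of 19 alternatives, among them DESeq2 (−0.63, DESeq2 adjusted p = 0.0399) and counts corrected for identifier collisions (−0.745, edgeR adjusted p = 0.0267).

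Most of the 36 had few counts left by the last stages. The median share of the 120 min mean was 5.21% at 270 min and 3.37% at 330 min, and it was 0.898% at 410 min and 0.213% at 500 min. All 3 libraries had 0 counts in 14 genes at 410 min and in 12 genes at 500 min. Those at 0 at 500 min included btb-8, fbxb-75, fbxb-38, fbxb-104, tbx-43, sdz-5 and C10C5.5. The 500 min stage was tested against 330 min, which uses no stage of the rule's fold conditions. Both stages still enter the rule, because the highest mean had to be at 120 min. The 1782 of 8279 tested genes that were highest at 500 min could thus not be among the 36. The shares lower and higher are therefore not independent of the choice of the genes. At 500 min 12 of the 36 were lower (33.3%) and 3 higher (8.33%), where 22.1% of tested genes were lower and 28.7% higher, and 21 did not pass edgeR's adjusted test. The median log2 change was −1.51 for the 36 and −0.01 for all tested genes. It was −1.43 over 28 genes when 4 genes at 0 counts at 1 stage were put at their floor and 8 at or under the floor at both were left out. Scaling moved the split over all genes. It was 1828 lower and 2376 higher with TMM, 3052 and 1761 by library size alone and 1426 and 1166 with spike-ins, where the median over all genes was −0.46 by library size alone and −0.63 with spike-ins. Spike-in scaling left 12 of the 36 lower and 1 higher. Without replicate 3 of all stages 6 were lower.

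Only 9 of the 36 had at least 20 CPM at 330 or 500 min. arrd-1 had 4.63, 0 and 1.75 CPM at 500 min, against 98.3, 113 and 143 CPM at 330 min. Its 2 counts at 500 min, against 239 at 330 min, made it 103-fold lower per count sequenced, with an exact 95% interval from 28.1 to 853. With TMM factors, edgeR gave arrd-1 a log2 change of −5.91 ± 0.64 (edgeR adjusted p = 2.1e-09). hnd-1 had 1 count at 500 min, against 44 at 330 min, which was 37.8-fold lower per count sequenced, with an interval from 6.44 to 1527. Its edgeR log2 change was −4.31 ± 0.84 (edgeR adjusted p = 4.3e-05). rnst-2 had 13.9, 17.3 and 22.7 CPM at 500 min, against 140.4, 103 and 147 CPM at 330 min, and its log2 change was −2.33 ± 0.29 (edgeR adjusted p = 1.4e-08). In all 3 the stages did not overlap. The other 9 that were lower had under 20 CPM at both stages; among them fbxb-35 fell to 0 counts at 500 min, against 28 at 330 min, at least 8.02-fold lower.

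At 500 min 3 genes were higher than at 330 min. F36A2.3 had 13.9, 34.6 and 29.7 CPM at 500 min, against 0, 5.26 and 3.07 CPM at 330 min, a log2 change of 3.85 ± 0.59 (edgeR adjusted p = 9.8e-07). alh-12 had 18.5, 26.5 and 40.2 CPM at 500 min, against 12.3, 10.5 and 15.3 CPM at 330 min, a log2 change of 1.65 ± 0.40 (edgeR adjusted p = 7.9e-04). F09F7.6 had 55.6, 44.9 and 50.6 CPM at 500 min, against 22.8, 26.3 and 20.5 CPM at 330 min, a log2 change of 1.60 ± 0.30 (edgeR adjusted p = 3.4e-05). By 410 min F09F7.6 already averaged 56.8 ± 17.3 CPM, while F36A2.3 averaged 3.15 ± 1.34 CPM and alh-12 16.7 ± 11.8 CPM there (SD, n = 3). In all 3 every 500 min library was above every 330 min library, and all stayed below their 120 min levels. With spike-in scaling alh-12 and F09F7.6 no longer passed. The ends of F36A2.3 and F09F7.6 overlap genes on the other strand, F36A2.2 by 93 bases and F09F7.5 by 17 bases, so reads of each pair may not be told apart. F36A2.2 averaged 13.7 CPM at 500 min and 29.2 CPM at 330 min, whereas F09F7.5 averaged 76.6 CPM at 500 min and 54.5 CPM at 330 min. alh-12 overlaps no other gene. elt-1 did not pass, at 78.7, 96.8 and 82.0 CPM at 500 min and 66.7, 86.8 and 163 CPM at 330 min (log2 change 0.18 ± 0.29, edgeR adjusted p = 0.637).

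**Figure D4:**
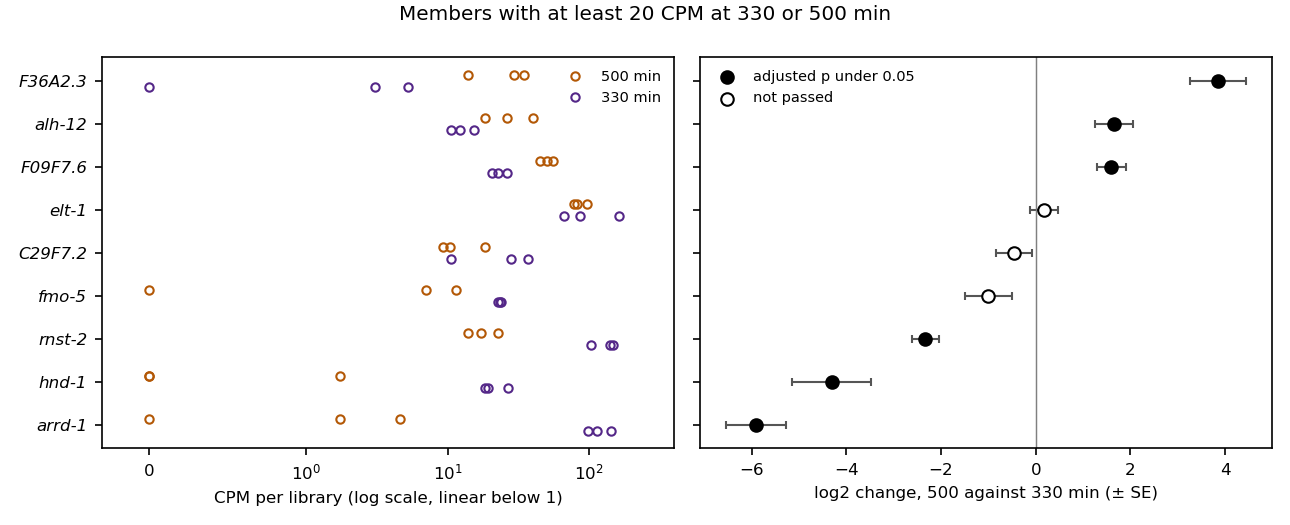
The 9 genes with at least 20 CPM at 500 or 330 min: CPM in each library at 500 min (orange) and 330 min (purple) on a log axis that is linear below 1 (left), and the log2 change at 500 against 330 min ± SE, filled where the edgeR adjusted p was under 0.05 (right). F36A2.3, alh-12 and F09F7.6 lie right of 0, and rnst-2, hnd-1 and arrd-1 lie left of it.

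Genes with an F-box symbol (fbxb or fbxc) were the largest named family among the 36, with 6 members. Genes without such a symbol were not checked for an F-box. fbxb-75 averaged 296 ± 40.9 CPM at 120 min, fbxb-38 214 ± 38.2, fbxb-104 210 ± 39.9, fbxc-25 209 ± 12.6, fbxb-35 123 ± 27 and fbxc-29 101 ± 29.7 (SD, n = 3). Together these 6 held 159.8 ± 26.9 CPM at 60 min, 1154 ± 161 CPM at 120 min and 462 ± 79.7 CPM at 180 min, followed by 150.2 ± 21.2 CPM at 225 min and 73.1 ± 21.5 CPM at 270 min. At 225 against 180 min 5 of the 6 fell, where 2.57% of all tested genes did, and fbxb-35 did not pass. This step lies inside the fall that the rule fixes, so the count is only a description. The fall passed in 7 of 19 alternatives for fbxc-29, 15 of 19 for fbxc-25 and 17 of 19 for fbxb-75. It passed in 13 of 18 for fbxb-104 and 15 of 18 for fbxb-38. F-box genes lie in a large multigene family, and reads of near-identical copies could be split by the counting, so single values are uncertain.

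A highest stage mean at 120 min was common among the tested genes of the wider family, except for those named fbxa. Here a peak means only the stage of the highest mean, and its height over 60 min varied. The means at 60 and 120 min were 533 and 557 CPM in fbxc-52 and 138 and 141 in fbxb-82. They were 93.3 and 346 CPM in fbxb-91 and 58.5 and 187 in fbxc-26. Overlap of the 60 and 120 min libraries was not counted for this family. Of 342 Skp1-related and F-box genes in the table, 129 were tested and 73 of these had their highest mean at 120 min (56.6%), where 980 of all 8279 tested genes did (11.8%). Split by symbol after the values were seen, 52 of 82 fbxb genes (63.4%), 12 of 23 fbxc genes (52.2%) and 9 of 16 skr genes (56.2%) peaked there, whereas 0 of 8 tested fbxa genes did. The Skp1-related skr genes summed to 7689 ± 564 CPM at 60 min, 12027 ± 811 at 120 min and 4988 ± 262 at 180 min, and none of them met the rule. Of the 32 tested F-box genes that peaked at 120 min with at least 100 CPM, 30 were at least 4-fold over 270 min but only 6 were at least 4-fold over 60 min. The other 24 that met the 270 min fold thus missed the rule through their level at 60 min alone. Over the whole list of 129, 39 fell (30.2%) and 1 rose (0.775%) at 225 against 180 min, where 2.57% of all tested genes fell and 3.07% rose (edgeR adjusted p under 0.05; median log2 change −1.39, or −1.36 over 121 genes with those at 0 counts put at their floor). At 500 against 330 min 42 were lower (32.6%) and 4 higher (3.1%), where 22.1% of all tested genes were lower and 28.7% higher (median −1.504, or −1.35 over 77 genes handled in the same way).

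**Figure D5:**
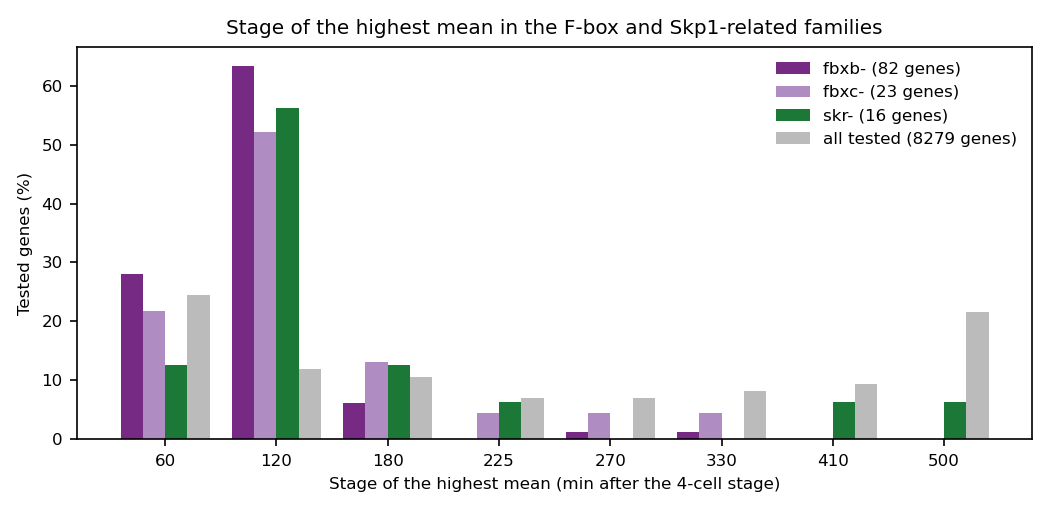
Share of tested genes (in percent, bars from 0) whose highest stage mean fell at each of the 8 stages, for fbxb genes (82), fbxc genes (23), skr genes (16) and all 8279 tested genes. At 120 min the shares are 63.4, 52.2 and 56.2% for the families shown and 11.8% for all tested genes. The fbxa genes (8 tested, 0 highest at 120 min) are not shown.

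The other lists each gave 2 genes or fewer to the 36. Of 33 sdz genes, 24 were tested, 15 of these were highest at 60 min and 9 at 120 min, and sdz-5 and sdz-25 were among the 36. At 225 against 180 min 9 of the 24 (37.5%) fell and 0 rose, where 2.57% of all tested genes fell and 3.07% rose. None of the 24 was highest after 120 min, so that share is not independent of their early expression. At both stages 9 of the 24 were at or under the floor. At 500 against 330 min 0 of the 24 were lower and 2 higher (8.33%), where 22.1% of all tested genes were lower and 28.7% higher. hnd-1 came from 9 tested genes of MS and early mesoderm, of which 4 peaked at 120 min, and it was the 1 of 17 tested bHLH genes with that peak. tbx-43 came from 11 tested T-box genes with 3 at 120 min, pes-1 from 11 forkhead genes with 2 and elt-1 from 11 epidermal genes with 2. The lists with none of the 36 were the endoderm cascade (5 tested, 2 highest at 120 min), Notch ligands, receptors and effector (9 and 4), the REF-1 family (3 and 0), proneural genes (14 and 1), Wnt and asymmetric division (15 and 1), sex determination and dosage compensation (13 and 3), cell death (15 and 3), homeobox genes (55 and 12), nuclear hormone receptors (78 and 4) and patched-related genes (17 and 0).

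The 36 genes had few exons. Of the 36, 24 had at most 4 exons in their transcript with most exons (66.7%), where 32.6% of 8184 tested protein-coding genes did. The median number of exons was 3.5 for the 36 and 6 for all tested protein-coding genes, and the median coding length was 967.5 and 1182 bases. Leaving out the genes with an F-box symbol, 18 of 30 had at most 4 exons (60%). On chromosome II lay 11 of the 36 (30.6%), where 18.1% of tested protein-coding genes lay, and 6 of the 30 without an F-box symbol (20%). The only pair within 10 kb of each other was Y71A12B.11 and gadr-5, on the same strand of chromosome I with a gap of 3095 bases and no gene between them (positions from the WBcel235 annotation). At 120 min gadr-5 had 122, 136 and 179 CPM, and at 180 min 13.4, 25.5 and 23.5 CPM. Both genes of the pair were among the 13 with at most 25% left at 180 min.

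Several genes lay close to the thresholds. The lowest 120 min means inside were those of fbxc-29 at 100.5 CPM, C10C5.5 at 111 and fbxb-35 at 123, and just outside were fbxb-8 at 98.9, math-48 at 95.3 and Y48G1C.6 at 92.3 CPM. The smallest ratios over 60 min inside were 4.02 for W04A8.3, 4.03 for Y45G5AM.5 and 4.10 for Y57A10C.1, and the nearest outside were 3.93 for F23A7.1, 3.79 for orc-1 and 3.76 for gadr-3. The smallest ratios over 270 min inside were 4.15 for rnst-2, 4.27 for elt-1 and 4.32 for fbxb-35, and the nearest outside were 3.44 for arrd-4, 3.42 for R04B3.2 and 3.37 for pcp-5. Another 3 genes, nlp-31, fbxc-36 and acs-22, met the level and both folds but were highest at another stage. When each replicate number was left out in turn and the rule applied again, 23 of the 36 met it all 3 times. Scaled by spike-ins, the rule kept 17 of the 36 and added none, and elt-1 and rnst-2 were among the 19 it lost. Limited to spike-ins with no value over 500, it kept 25 and lost 11, again with elt-1 and rnst-2 among them.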

How the data were processed

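Expression was measured by CEL-Seq in 24 libraries of pooled embryos, 3 at each of 8 stages, and the deposited values are raw counts per gene. Per the submitters' processing notes, the authors used HTSeq. Its version is not given in the sources used here, nor are the aligner, the build, the gene models or the counting strand. The table holds 20779 entries, of which 92 are spike-ins and 20687 worm genes, and no value exceeds 1023, close to the 1024 forms that a 5-base molecular identifier has. Such a limit would compress high values; the highest count among the 36 genes was 567, and 2 of them exceeded 500. Identifiers matched the Ensembl annotation of WBcel235 for 20083 worm genes, and the 604 without a match held 0.423% of the counts. No data column was left out (0 unused).

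CPM are counts divided by the worm total of the library, without spike-ins. Tests used edgeR 4.0.16 (limma 3.58.1) in R 4.3.3: filterByExpr with a minimum count of 10 and total of 15 kept 8279 genes, TMM factors ran from 0.78 to 1.17, and 1 robust quasi-likelihood model, with a term for stage, covered all 24 libraries (16 residual degrees of freedom, biological coefficient of variation 0.192). P-values were adjusted by Benjamini-Hochberg over all tested genes, with a threshold of 0.05. The fit was tested on simulated data with known changes. DESeq2 1.42.0, other scalings, filters and left-out libraries were alternatives. Floors are 3 counts over the 3 libraries of a stage, and intervals are exact 95% binomial intervals of the counts. Python 3.11.15, pandas 2.3.3 and matplotlib 3.10.9 were used for tables and figures.

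The genes, the lists and the tests were chosen with earlier results of these data known. Named are genes of the lists, the 10 with the highest CPM, the 5 with the highest ratio, the extreme changes of each test, those next to a threshold, and neighbours within 10 kb; the others are named to account for all 36. Promoter motifs and protein identity had been planned, but no sequence was at hand, so they were not analysed here.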

Additional observations from a re-analysis of the deposited data

How the results depend on the processing

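The rule gave 36 genes, and 17 with spike-in scaling (25 with limited spike-ins), 16 with a minimum of 200 CPM, 61 at 3-fold and 14 at 6-fold; without 1 replicate number or library it gave 32 to 43. The 25 genes lower at 225 min became 6 with either spike-in scaling (the one limited to spike-ins with no value over 500 was chosen after seeing the data) and 6 to 22 with 1 replicate left out; no gene that passed changed sign. The 12 lower at 500 min became 4 with only the 6 libraries of the contrast, where 8 of the 36 were tested, and 6 to 12 with 1 replicate left out; the 3 higher became 1 with either spike-in scaling. elt-1, which passed in neither test, turned to 0.151 (log2) with limited spike-ins and 0.005 with 6 libraries at 225 min, and to −0.293 by library size alone, −0.537 and −0.387 with all and with limited spike-ins and −0.053 without a filter at 500 min; without 1 replicate it ran from −0.235 to 0.227 and from −0.108 to 0.661. The cause was not tested. With the replicate number as a block, 30 were lower at 225 min (319 over all genes, against 213; rnst-2, alh-12, R04A9.7, F36A2.3 and F55C9.3 were added), and 12 lower and 3 higher at 500 min. Not every same-numbered pair deviated together by over 0.1, so the numbers were not taken as pairs: the correlation was 0.304, 0.139 and 0.011 for 225 and 180 min, 0.227, 0.060 and 0.087 for 500 and 330 min and 0.321, 0.068 and 0.236 for 120 and 60 min (replicates 1 to 3). Its median over all stages was 0.122 for the same number and −0.083 for other numbers, so a shared component is possible. The share with at most 4 exons was 70.97% without the 5 genes that overlap another protein-coding gene and 71.4% without the 8 that overlap any gene (the second chosen after seeing the data), and 1 pair of neighbours was found at 5 and 20 kb too; a shorter promoter window was not run. DESeq2 gave 23 lower at 225 min, and 9 lower and 3 higher at 500 min. 120 min replicate 1 had the fewest counts, 172620, so that 1 count there is 5.79 CPM. Without it the rule gave 41 genes, 34 of them among the 36 (chosen after seeing the data).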
